A study of Mus musculus with 5 samples.

Results

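The pyruvate dehydrogenase genes described here are 10 of the 46959 gene symbols in the count tables: the kinases Pdk1, Pdk2, Pdk3 and Pdk4, the phosphatases Pdp1 and Pdp2, and the complex subunits Pdha1, Pdhb, Dlat and Pdhx. They were taken by symbol, and the set was selected on their counts in the caMNK and pBABE libraries, where Pdk1 and Pdk4 had been seen to move in opposite directions. All 10 were abundant enough to be among the 17026 genes tested. RNA came from D4m.3a, a mouse melanoma line of C57BL/6 origin at passages 7 to 12. The reference group carried the empty vector pBABE (n = 2 libraries), and the other group, caMNK, carried a constitutively active MNK, the kinase that phosphorylates the cap-binding factor eIF4E (n = 3). Both groups are the same parental line and differ by the introduced construct. The sources used here do not give its promoter or say whether each derivative is a clone or a pool. Nothing in the labels says how the cultures were kept apart, so all errors below are those between libraries and may be technical. Each group is a single derivative, and the kinase cannot be told apart from any other way in which the derivatives differ.

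The pyruvate dehydrogenase complex sits in the mitochondrial matrix and turns pyruvate into acetyl-CoA, the step that joins glycolysis to the tricarboxylic acid (TCA) cycle. Its E1 enzyme is built from an alpha and a beta chain (Pdha1, Pdhb), E2 is the acetyltransferase core (Dlat), E3 is dihydrolipoamide dehydrogenase (Dld), and E3 is held to the core by the E3 binding protein (Pdhx). The Pdk kinases phosphorylate serines of E1 alpha and switch the complex off, and the Pdp phosphatases reverse this. Pdk1 is a known target of hypoxia-inducible factor (HIF), and Pdk4 is known for its induction in fasting through PPAR, FOXO and glucocorticoid receptors. In human melanocytes with mutant BRAF, activation of the complex has been tied to oncogene-induced senescence and PDK1 to its avoidance.

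The libraries held 27827199 to 48794336 counts, and 22686 to 24034 genes had at least 1 count in each. Mknk1, which encodes MNK1, averaged 15.9 ± 1.05 CPM (counts scaled to the TMM-adjusted library total; SD, n = 2) in pBABE and 163 ± 7.22 CPM (SD, n = 3) in caMNK, so the labels and the transcript go the same way. Of 7 melanocyte markers, Tyrp1 and Dct had no count in any library, Tyr, Sox10 and Mlana had fewer than 10 counts over all libraries, and Mitf lay between 4.35 and 6.48 CPM. Pmel, which overlaps Cdk2 and Dgka, lay between 0.217 and 0.432 CPM, and reads common to these genes were not measured. The 5 immune markers summed to at most 0.192 CPM in any library. Fibroblast markers were present in both groups, with sums of 329 to 381 CPM in pBABE and 356 to 464 CPM in caMNK, chiefly from Col1a1, Col1a2 and Pdgfra. Within this sum Col1a1 fell 1.70-fold (edgeR adjusted p = 0.0164) and Col1a2 rose 1.79-fold (0.0218), calls lost without either pBABE library or caMNK replicate 1. The endothelial markers summed to 5.28 to 9.08 CPM in pBABE and 3.22 to 3.28 CPM in caMNK, most of it Cdh5, with Tie1 at 0. They did not move together. Pecam1 measured 0.192 and 0.248 CPM in pBABE and 0.558, 0.617 and 0.189 CPM in caMNK, and was not called (log2 fold change 1.07). Vwf, not tested, went from 0.048 and 0 CPM to 0.349, 0.123 and 0.162 CPM, and Kdr, not tested either, was at 0.144 CPM or less. Cdh5 itself fell from 6.85 ± 2.76 to 2.52 ± 0.275 CPM (edgeR adjusted p = 0.0141), a call lost without pBABE replicate 2 (0.113) or caMNK replicate 1 (0.0661).

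Pdk1 was lower and Pdk4 higher in every caMNK library, in a set whose other members differed less. Across all genes, 753 rose and 599 fell (4.42% and 3.52% of those tested, edgeR adjusted p under 0.05), and with total-count scaling, which moved the median of all genes from -0.002 to 0.051, rises made up 68.2% of the calls against 55.7%. Among the 10 genes, Pdk4 and Pdp1 rose and Pdk1 fell by this threshold, 3 of 10 against 7.94% of all genes. Because the set was chosen with this contrast in view, its differences are given as a description without p-values. Nothing is read from that share. Later statements that a member was or was not past the threshold in a fit are likewise descriptions and no support. The groups did not overlap for 8 of the 10 genes, where 44.9% of all tested genes were so separated. In 2 of them caMNK was higher (22.3% of all genes) and in 6 lower (22.6%). The median log2 fold change (caMNK over pBABE) of the 10 genes was -0.16, against -0.002 for all genes. In bulk RNA, fewer cells making a transcript and less transcript per cell cannot be told apart.

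**Figure D1:**
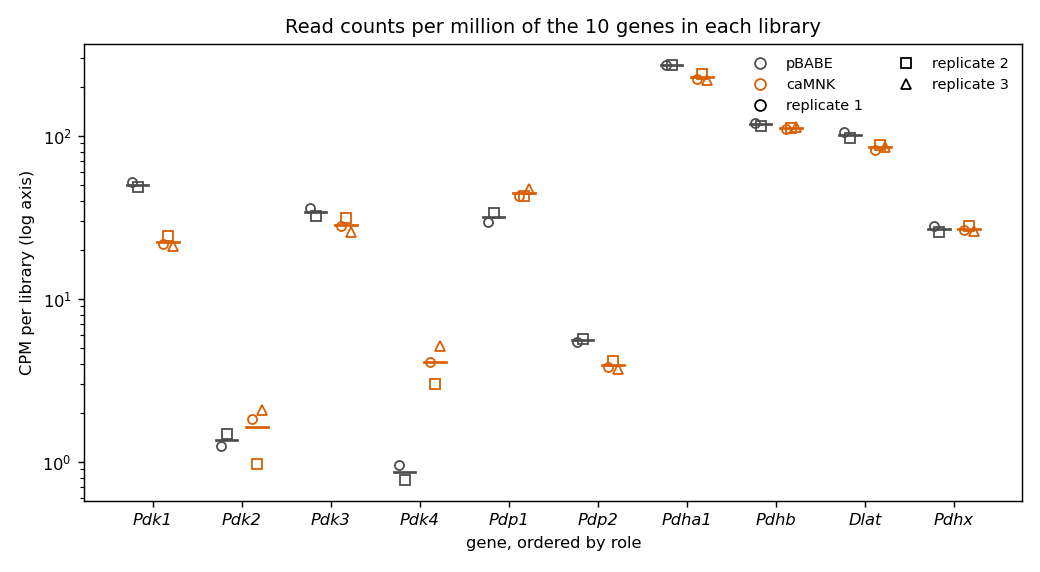
CPM of each of the 10 genes (log axis) in the 2 pBABE libraries (grey) and the 3 caMNK libraries (orange), with replicates as symbols and the group mean as a bar. Pdk1 lies at 48.8 to 51.9 CPM in pBABE and 21.2 to 24.4 CPM in caMNK, Pdk4 at 0.775 to 0.960 CPM and 3.00 to 5.13 CPM.

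Pdk1 (ENSMUSG00000006494.11; GRCm38 chromosome 2, 71873224 to 71903858, plus strand), the kinase isozyme known to respond to low oxygen, was at 51.9 and 48.8 CPM in pBABE and at 21.8, 24.4 and 21.2 CPM in caMNK. The caMNK libraries lay together, far below both pBABE libraries. Its log2 fold change was -1.16 (SE 0.0978), a fall of 2.24-fold, from 50.3 ± 2.18 to 22.5 ± 1.70 CPM. Pdk1 overlaps no other annotated gene, and its 6334 reads over the 5 libraries made it the most counted of the kinases. Over the 11 alternative fits the log2 fold change lay between -1.23 and -1.11.

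Pdk4 (ENSMUSG00000019577.6; chromosome 6, 5483351 to 5496309, minus strand), the fasting-responsive isozyme, was the least abundant member in pBABE, at 0.960 and 0.775 CPM, or 40 and 25 counts. It measured 4.11, 3.00 and 5.13 CPM in caMNK, or 118, 146 and 190 counts. All 3 caMNK libraries exceeded both pBABE libraries, and caMNK replicate 2 was the lowest of the 3. The log2 fold change was 2.21 (SE 0.286), a 4.63-fold rise, and it stayed between 2.00 and 2.40 in 11 alternative fits. It was no longer past the threshold without pBABE replicate 1 or without pBABE replicate 2.

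The bases before the starts of these genes are shown because the pair moved in opposite directions. They are from RefSeq (GRCm38.p6), on the strand of each gene, and end before the first base that GENCODE release M21 annotates as transcribed. Capitals mark ACGTG or GCGTG, the core letters of HIF sites, on either strand.
Pdk1, chr2:71872974-71873223, plus strand: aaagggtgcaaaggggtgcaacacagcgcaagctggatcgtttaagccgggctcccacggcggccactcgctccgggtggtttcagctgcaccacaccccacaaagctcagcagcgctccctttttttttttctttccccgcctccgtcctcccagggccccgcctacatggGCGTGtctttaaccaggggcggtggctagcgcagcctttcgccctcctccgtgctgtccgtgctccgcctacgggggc
Pdk4, chr6:5496310-5496528, minus strand: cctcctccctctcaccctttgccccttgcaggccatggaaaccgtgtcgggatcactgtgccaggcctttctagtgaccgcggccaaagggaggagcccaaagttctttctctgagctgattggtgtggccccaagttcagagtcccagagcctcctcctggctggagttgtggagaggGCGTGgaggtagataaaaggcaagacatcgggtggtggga
Each stretch held GCGTG at 1 place and ACGTG at none. Of 32851 RefSeq windows of 250 bases before a start, 28.2% held GCGTG and 16.6% ACGTG on either strand. The table had windows for 9 of the 10 genes, 11 windows in all since Pdk1 and Pdk2 have a second start, and lacked Pdp1. GCGTG was in 6 of these windows and ACGTG in 4, those of Pdp2, Pdk2, Pdhb and Pdk3. In Pdp2 and Pdk2 the ACGTG letters lay within CACGTG, the E-box, which 6.02% of all windows held. The FOXO letters GTAAACA, present in 3.17% of all windows, and the ATF4 letters TTGCATCA, in 0.791%, were in none of the 11 windows. These are matches of letters within the windows, and they bear on no factor's binding.

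Pdk3 (ENSMUSG00000035232.8; chromosome X, 93764607 to 93832201), an isozyme known for its restricted tissue range, measured 35.9 and 32.1 CPM in pBABE and 27.9, 31.6 and 25.8 CPM in caMNK. The groups nearly met at pBABE replicate 2 and caMNK replicate 2. The log2 fold change was -0.26 (SE 0.113), not past the threshold with all libraries. Pdk2 (ENSMUSG00000038967.13; chromosome 11, 95026258 to 95041354), the widely expressed isozyme, was at 1.25 and 1.49 CPM in pBABE and at 1.85, 0.967 and 2.08 CPM in caMNK. Its groups overlapped, since caMNK replicate 2 was the lowest of all 5 libraries, and the log2 fold change of 0.23 had an SE of 0.333. Over the alternatives it ran from -0.01 to 0.54, and it rested on 47 to 77 counts per library.

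Summed over the isozymes, kinase transcripts came to 90.0 and 83.2 CPM in pBABE and to 55.7, 60.0 and 54.2 CPM in caMNK. The sum followed Pdk1, since Pdk4 added at most 5.13 CPM to any library. For each 100 Pdk1 counts there were 1.85 and 1.59 Pdk4 counts in pBABE and 18.9, 12.3 and 24.2 in caMNK. This ratio is taken within a library and does not depend on the scaling between libraries. Pdk1 counts exceeded those of Pdk3 in both pBABE libraries, at 1.44 and 1.52 per Pdk3 count, and were fewer in all caMNK libraries, at 0.783, 0.772 and 0.822. Of all kinase counts, Pdk4 took 1.07% (95% Wilson interval 0.784 to 1.45) and 0.931% (0.632 to 1.37) in pBABE. In caMNK it took 7.39% (6.21 to 8.78), 5.01% (4.27 to 5.86) and 9.48% (8.27 to 10.8). The intervals cover counting error only, and that of caMNK replicate 2 overlapped neither that of replicate 1 nor that of replicate 3.

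Which isozyme led depended on the length used. Deposited lengths equal the annotated gene span, introns included, for 8 of the 10 genes, the exceptions being Pdp2 and Pdhb, and the share of reads from introns was not measured. Per kilobase of deposited length, Pdk1 made up 71.3 ± 0.32% of the kinase counts in pBABE (n = 2) and 46.5 ± 4.11% in caMNK (n = 3), and Pdk3 21.8 ± 0.697% and 26.7 ± 3.13%. Per kilobase of merged exons, Pdk3, whose span of 67.6 kb holds 2.56 kb of exons, made up 65.0 ± 0.975% and 70.7 ± 3.33%, and Pdk1 31.7 ± 0.679% and 18.4 ± 0.374%. By both lengths the Pdk1 share was lower and the Pdk4 share higher in every caMNK library. Pdk4 went from 2.90 ± 0.299% to 19.9 ± 4.91% per kilobase of deposited length and from 1.21 ± 0.104% to 7.51 ± 2.33% per kilobase of exons.

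**Figure D2:**
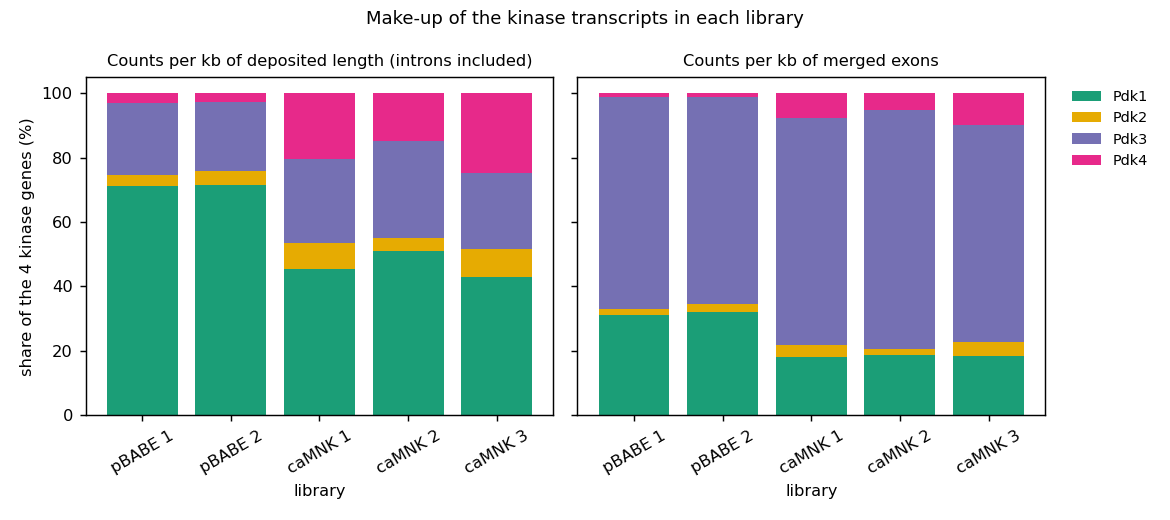
Share of Pdk1 to Pdk4 (%) in the counts of the 4 kinase genes in each library, per kilobase of deposited length (left) and per kilobase of merged exons (right). Pdk1 leads on the left, Pdk3 on the right, and on both sides the Pdk4 share is larger in the 3 caMNK libraries than in the 2 pBABE libraries.

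The phosphatase genes also went in opposite directions. Pdp1 (ENSMUSG00000049225.14; chromosome 4, 11958184 to 11966452), the catalytic subunit that responds to calcium, measured 29.7 and 33.6 CPM in pBABE and 42.9, 43.0 and 47.2 CPM in caMNK. All caMNK libraries were higher, and its log2 fold change was 0.49 (SE 0.0996), a 1.40-fold rise. The call was lost without pBABE replicate 1, pBABE replicate 2 or caMNK replicate 1, and without pBABE replicate 1 the log2 fold change was 0.39. Pdp2 (ENSMUSG00000048371.8; chromosome 8, 104591451 to 104599026), the other catalytic subunit, measured 5.47 and 5.70 CPM in pBABE and 3.83, 4.18 and 3.73 CPM in caMNK. The Pdp2 groups did not overlap either, but its log2 fold change of -0.51 (SE 0.140) was not past the threshold with all libraries. It passed when caMNK replicate 2 was left out, and when low counts were not filtered, where its SE was 0.175.

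Counts of the kinases and phosphatases moved closer together. There were 2.56 and 2.12 kinase counts for each phosphatase count in pBABE and 1.19, 1.27 and 1.06 in caMNK. Pdk1 counts per Pdp1 count went from 1.74 and 1.45 to 0.508, 0.568 and 0.449, so that Pdk1 was counted more often than Pdp1 in both pBABE libraries and less often in all 3 caMNK libraries. These are ratios of raw counts from genes of different length, and they compare libraries, not amounts of enzyme.

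**Figure D3:**
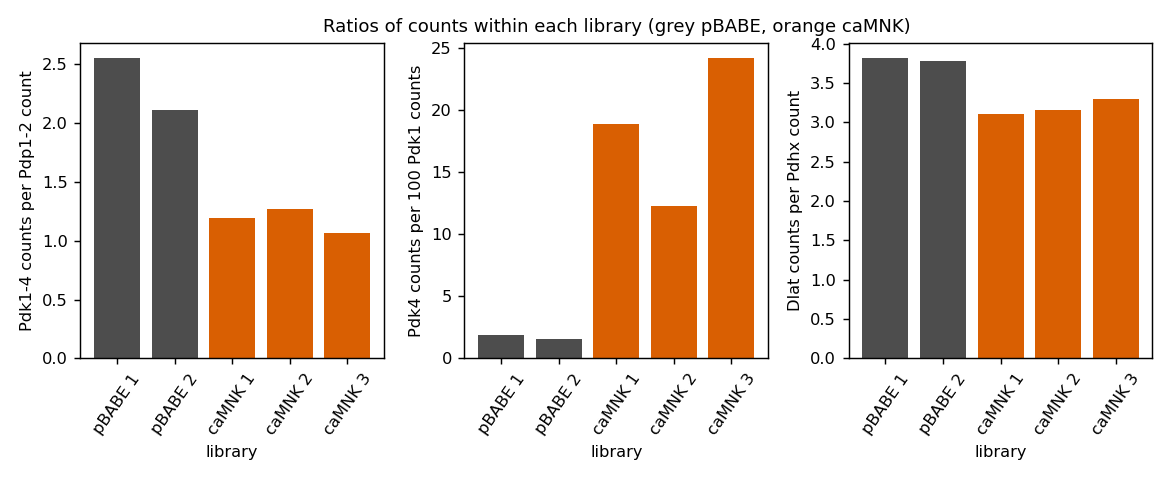
Ratios of raw counts within each library: Pdk1 to Pdk4 per Pdp1 and Pdp2 count (left), Pdk4 per 100 Pdk1 counts (middle) and Dlat per Pdhx count (right), pBABE in grey and caMNK in orange. The left ratio is 2.12 or more in pBABE and 1.27 or less in caMNK, and the middle ratio is 1.85 or less in pBABE and 12.3 or more in caMNK.

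Summed over the complex genes Pdha1, Pdhb, Dlat and Pdhx, transcripts came to 528 and 511 CPM in pBABE and 444, 470 and 447 CPM in caMNK. Pdha1 (ENSMUSG00000031299.10; chromosome X, 160122209 to 160138413), the E1 alpha chain that carries the regulated serines, measured 273 and 273 CPM in pBABE and 225, 241 and 221 CPM in caMNK. The caMNK libraries were all lower, and the log2 fold change was -0.25 (SE 0.0834), not past the threshold. Pdha1 overlaps Map3k15, on the other strand, by 1143 bases, and Map3k15 had 39.9% as many counts in all. Reads common to both were not separated here.

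Pdhb (ENSMUSG00000021748.9; chromosome 14, 8165996 to 8173025), the E1 beta chain, measured 120 and 115 CPM in pBABE and 111, 113 and 114 CPM in caMNK, a log2 fold change of -0.07 (SE 0.0804). The nearest libraries of the groups were closer to each other than the pBABE libraries were. Dlat (ENSMUSG00000000168.9; chromosome 9, 50634633 to 50659780), the E2 core, measured 106 and 97.4 CPM in pBABE and 82.1, 88.0 and 86.0 CPM in caMNK, a log2 fold change of -0.26 (SE 0.0860). Pdhx (ENSMUSG00000010914.10; chromosome 2, 103021075 to 103073513), the E3 binding protein, measured 27.9 and 25.7 CPM in pBABE and 26.5, 27.9 and 26.1 CPM in caMNK, and its groups overlapped. The Pdhx log2 fold change was 0.002 (SE 0.0943). None of these subunits was past the threshold with all libraries, and Pdha1 and Dlat passed without caMNK replicate 2.

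For each Pdhx count there were 3.82 and 3.79 Dlat counts in pBABE and 3.10, 3.15 and 3.30 in caMNK, lower in every caMNK library. For each Pdhb count, pBABE had 2.28 and 2.37 Pdha1 counts and caMNK 2.03, 2.15 and 1.94. Pdha1 counts per Dlat count overlapped between the groups, at 2.57 and 2.80 against 2.73, 2.74 and 2.57. In the order of levels per kilobase of deposited length in pBABE, Pdha1 (16.9 and 16.8 CPM per kb) and Pdhb (17.2 and 16.4) led and overlapped. Dlat (4.23 and 3.87) and Pdp1 (3.60 and 4.07) overlapped next, followed by Pdk1 (1.69 and 1.59), Pdp2 (1.02 and 1.06), the overlapping pair Pdk3 (0.532 and 0.475) and Pdhx (0.531 and 0.490), then Pdk2 (0.0826 and 0.0985) and Pdk4 (0.0740 and 0.0598). Per kilobase of exons Pdha1 (73.2 and 73.1 CPM per kb) led alone, above Pdhb (31.1 and 29.8) and Dlat (21.8 and 19.9). Pdk3 came after Dlat, at 14.0 and 12.5 CPM per kb. Below it were Pdp1, Pdhx and Pdk1, which lay between 6.27 and 7.46 CPM per kb and overlapped.

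**Figure D4:**
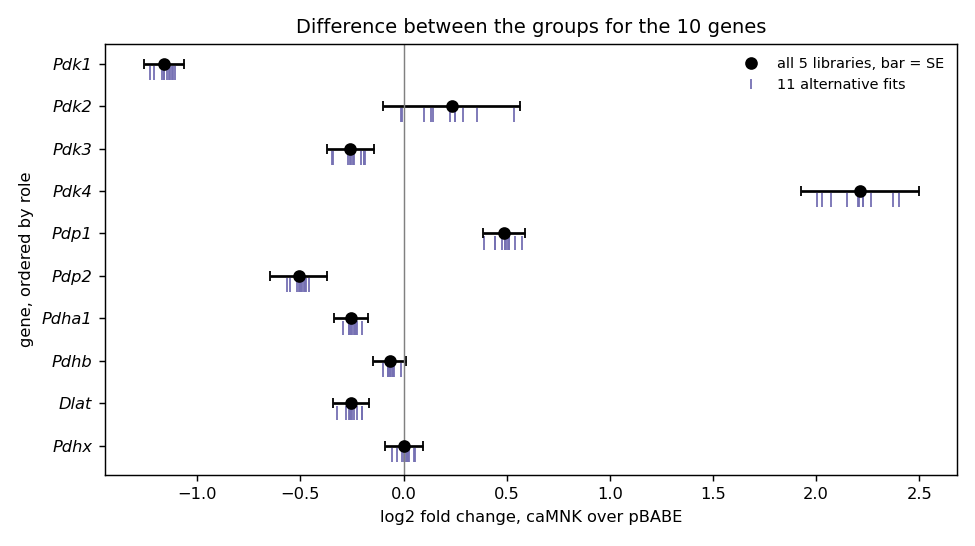
Log2 fold change of each gene, caMNK over pBABE, with all 5 libraries (black, bar = SE) and in the 11 alternative fits (purple marks). Pdk1 stays between -1.23 and -1.11 and Pdk4 between 2.00 and 2.40, while the marks of Pdk2 and Pdhx fall on both sides of 0.

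Among the caMNK libraries, replicate 2 lay nearest to the pBABE mean for 6 of the 8 genes whose groups did not overlap, all but Pdp1 and Pdhb. Over all tested genes of this kind it was the nearest in 44.7%. With caMNK replicate 2 left out, Pdk1, Pdk3, Pdk4, Pdp1, Pdp2, Pdha1 and Dlat were past the threshold, 7 of the 10 genes. In that fit, 2325 of all 16675 tested genes rose and 2617 fell. The members were chosen on this contrast, so nothing is read from their count past the threshold. Without pBABE replicate 1, Pdk1 was the only one of the 10 past it, in a fit where 11 genes rose and 12 fell, and the same held without pBABE replicate 2, where 37 rose and 18 fell.

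Patterns over the 5 libraries were compared at a mean log2 CPM of 3 and above. The genes whose centred log2 CPM differed least from that of Pdk1 were Ank2 (root mean square difference 0.068), Mir5114 (0.075), Ildr2 (0.111), Ak4 (0.122) and Pycr1 (0.126), out of 9327. Ank2 encodes an ankyrin of the membrane skeleton, Ak4 a mitochondrial adenylate kinase and Pycr1 an enzyme of proline synthesis. The microRNA gene Mir5114 lies inside Scd2, Ank2 overlaps many annotated genes, and Ildr2 overlaps 5330438I03Rik. For these and other annotated overlaps named below, reads common to the genes were not measured. For Pdk4 the nearest were Krt20 (0.179), Egr1 (0.273), Clu (0.278), Nrcam (0.342) and Aim2 (0.342), out of 9328. None came as close as the nearest 5 of Pdk1. Pdk4 itself lay below the cut of 3, at a mean log2 CPM of 1.16 against 4.96 for Pdk1. The part of counting error in its distances was not measured, so the 2 sets of distances are not alike. Krt20 is a keratin gene, Egr1 an immediate early transcription factor, Clu a secreted chaperone and Aim2 a DNA sensor whose gene overlaps Cadm3. Nrcam overlaps Gm48181 and Gm48182. With 5 libraries in 2 groups, this measure is set mostly by the size of the group difference.

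Around the complex, among genes of pyruvate supply and its other fates, Ldha, Slc16a3, Pck2 and Gpt2 fell and Slc16a1 rose. No gene of the neighbouring mitochondrial steps was called by edgeR with all libraries, the filter on low counts and no replicate block. Over 6 lists of pathway genes, 106 of 117 distinct genes were tested, and 3 rose (2.83%, against 4.42% of all genes) and 11 fell (10.4%, against 3.52%). No gene of these lists fell past the threshold without pBABE replicate 1 or without pBABE replicate 2, and 0 and 1 rose. Leaving out caMNK replicate 1 gave 2 rises and 5 falls, and leaving out caMNK replicate 2 gave 14 and 32. All 6 lists were chosen with earlier results of these data known. Those of HIF and of FOXO and PPAR targets hold genes that had been seen to move in these libraries. The counts and shares of the 6 lists are no independent evidence of a direction.

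Of 17 tested genes of pyruvate supply and its other fates, 1 rose and 4 fell (median log2 fold change -0.22). The lactate dehydrogenase gene Ldha, whose enzyme competes for pyruvate, measured 1348 and 1275 CPM in pBABE and 773, 705 and 896 CPM in caMNK (edgeR adjusted p = 0.00964, log2 fold change -0.73, SE 0.11). The lactate exporter gene Slc16a3 went from 2.78 and 3.07 CPM to 1.25, 1.13 and 1.0 CPM (adjusted p = 0.00814, log2 fold change -1.38, SE 0.194). Pck2, the mitochondrial enzyme that makes phosphoenolpyruvate, fell from 154 ± 9.97 to 84.7 ± 11.8 CPM (adjusted p = 0.00814). All 3 calls were lost without pBABE replicate 1 and without pBABE replicate 2 (adjusted p of 0.0659 to 0.135), and that of Ldha also without caMNK replicate 1. Named after their values were seen, the alanine aminotransferase gene Gpt2 fell 1.74-fold (adjusted p = 0.0104), and the monocarboxylate carrier gene Slc16a1 rose 1.32-fold (0.0251). Slc16a1 went from 140 ± 0.581 to 185 ± 6.51 CPM, far above the level of Slc16a3, and its call was lost without caMNK replicate 1. The transcripts of these carriers thus went in opposite directions. The mitochondrial pyruvate carrier genes were not called: Mpc1, which overlaps 4930506C21Rik, had a log2 fold change of -0.22 (SE 0.133) and Mpc2 of 0.29 (SE 0.127).

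With all libraries, this filter and no replicate block, edgeR called none of the 11 tested genes of the related dehydrogenase complexes. The same held for the 15 of lipoate and thiamine cofactors and the 15 of the TCA cycle. At an unadjusted p under 0.05 the edgeR counts were 0 higher and 3 lower, 3 higher and 2 lower, and 0 higher and 4 lower. By limma-voom none was called. By DESeq2, Ogdh of the oxoglutarate dehydrogenase complex fell in the first list and the succinyl-CoA ligase gene Suclg2 in the last. Without caMNK replicate 2, 1 gene of the related complexes rose and 4 fell, 2 of the cofactor genes rose and 1 fell, and 3 of the TCA cycle fell. Without caMNK replicate 3, 1 of the TCA cycle fell. Without the filter, 2, 1 and 1 genes of the 3 lists fell and 1 cofactor gene rose. With the replicate number as a block, 2, 2 and 3 fell and none rose. Dld, which encodes the E3 shared by these complexes, had an adjusted p of 0.667 at a log2 fold change of -0.08, and Bckdk, the related kinase of the branched-chain complex, one of 0.0859 at -0.29. Median log2 fold changes of the 3 lists were -0.19, 0.02 and -0.12.

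Of 22 tested genes of the HIF pathway, 5 fell and 0 rose by edgeR and by limma-voom, 7 fell and 0 rose by DESeq2, and 1 was higher and 9 lower at an unadjusted edgeR p under 0.05 (median log2 fold change -0.22). Egln3, a prolyl hydroxylase that marks HIF for decay, fell from 109 ± 3.17 to 67.8 ± 2.84 CPM (adjusted p = 0.00526), the disulfide oxidase gene Ero1l from 142 ± 1.94 to 76.0 ± 9.40 CPM (0.00537) and the collagen prolyl hydroxylase gene P4ha1 from 210 ± 7.34 to 141 ± 3.76 CPM (0.00814). The remaining falls, named after their values were seen, were in Pgk1 (log2 fold change -0.69) and Bnip3 (-0.65). All these edgeR calls were lost without pBABE replicate 1 and without pBABE replicate 2. Without caMNK replicate 1, only Egln3 and Ero1l stayed called in this list, and P4ha1 had an edgeR adjusted p of 0.0579. Hif1a itself was at -0.15 (adjusted p = 0.561) and overlaps Gm15283.

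Of 26 tested genes of the FOXO, PPAR and glucocorticoid group, 2 rose and 2 fell (median log2 fold change -0.18). Angptl4, a secreted inhibitor of lipoprotein lipase, measured 0.984 and 1.61 CPM in pBABE and 12.7, 6.50 and 12.4 CPM in caMNK (adjusted p = 0.00524, log2 fold change 3.03, SE 0.361; adjusted p = 0.0907 without pBABE replicate 1). Txnip, which curbs glucose uptake and whose gene overlaps Gm15441, went from 1.46 and 1.58 CPM to 9.45, 3.87 and 5.49 CPM (adjusted p = 0.0176, log2 fold change 2.02, SE 0.376; adjusted p = 0.180 and 0.116 without pBABE replicate 1 and 2). As with Pdk4, caMNK replicate 2 was the lowest of the caMNK libraries for both. Irs2, an insulin receptor substrate gene that overlaps 9530052E02Rik, fell from 17.1 ± 0.00597 to 10.7 ± 1.51 CPM (adjusted p = 0.0218; not past the threshold without pBABE replicate 1, pBABE replicate 2 or caMNK replicate 1). Named after its values were seen, Fkbp5, a glucocorticoid-induced chaperone gene, fell 1.31-fold (0.0432). The receptor and factor genes Foxo1, Foxo3, Ppard and Nr3c1 had log2 fold changes of -0.23, -0.29, -0.18 and -0.45, none past the threshold by edgeR. DESeq2 called 3 rises and 3 falls in this list, adding a rise of Cpt1a, the carnitine palmitoyltransferase of fatty acid import, and a fall of Nr3c1, the glucocorticoid receptor.

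**Figure D5:**
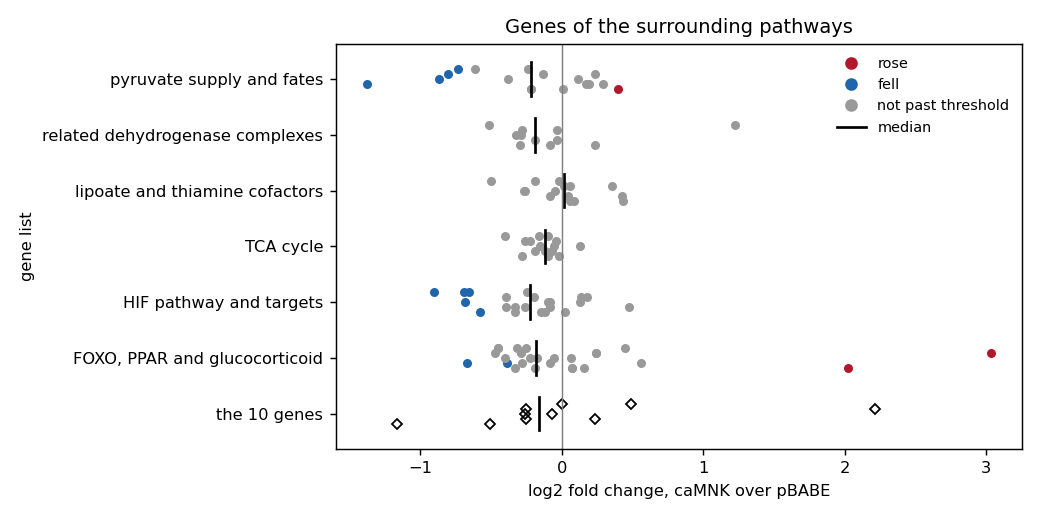
Log2 fold change, caMNK over pBABE, of each tested gene in the 6 pathway lists and of the 10 genes, with the list median as a black line (red, rose; blue, fell; grey, not past the threshold; open diamonds, the 10 genes, shown without a test). The 3 lists of neighbouring mitochondrial steps hold grey points only.

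In the same libraries, 6 of 10 tested mitochondrial mRNAs rose and 0 fell, where 4.42% of all tested genes rose. The list of 13 summed to 12290 to 13533 CPM in pBABE and 18772 to 21665 CPM in caMNK. Of these, mt-Co2, mt-Atp6 and mt-Atp8 were not tested, at 0.244 CPM or less in any library. As mt-Co3 lay at only 1.60 to 2.17 CPM, the sums hold almost nothing of these mRNAs. The reason was not tested. Of 6 tested nuclear non-coding RNAs 3 rose and 1 fell (3.52% of all tested genes fell), and their sums were 427 to 440 CPM and 654 to 960 CPM. The most abundant tested members of these lists were mt-Co1, mt-Cytb and mt-Nd4, and Malat1, which overlaps Gm37376, Gas5 and Neat1. All 6 rose, and all 6 calls were lost without pBABE replicate 1 (edgeR adjusted p of 0.103 to 0.397) and without pBABE replicate 2 (0.0610 to 0.273). The part of such shifts in the values of the pyruvate dehydrogenase genes was not tested.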

How the data were processed

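Total RNA of 5 libraries was sequenced after a stranded total RNA preparation, per the labels' protocols. The authors deposited raw read counts per gene symbol, 1 table per library, with a gene length. The submitters' processing notes name build mm10 and the tools STAR 2.5.3, featureCounts 1.5.3, DESeq2, Trimmomatic 0.32, SAMtools 0.1.19 and FastQC 0.11.2. The sources used here do not give counting options, strand use or the annotation release. Groups came from the sample titles. Gene positions, exon lengths and overlaps are from GENCODE release M21 (GRCm38).

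Counts were compared with edgeR 4.0.16 in R 4.3.3: filterByExpr, TMM scaling, the robust quasi-likelihood F test with group as the only term, and Benjamini-Hochberg adjustment over 17026 genes, with a threshold of 0.05. CPM use TMM-scaled totals, and the SE is the log2 fold change over the square root of F. Merged exons are the union over all transcripts. Similar patterns used log2 CPM with a prior count of 2. The script was tested on simulated data. Alternatives were total-count scaling, DESeq2 1.42.0, limma-voom 3.58.1, no filter, a stricter filter (1 CPM in 2 libraries), the replicate number as a block, and leaving out each library.

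The members and the lists were chosen with earlier results of these data known. Named genes are the 10 members, Mknk1, the 3 genes of lowest p among the called genes of each pathway list, the 3 most abundant of each other list, and the 5 of most similar pattern to Pdk1 and to Pdk4. Further list genes were named outside this rule after their values were seen. They are Gpt2, Slc16a1, Mpc1, Mpc2, Dld, Bckdk, Ogdh, Suclg2, Pgk1, Bnip3, Hif1a, Fkbp5, Foxo1, Foxo3, Ppard, Nr3c1 and Cpt1a. The same holds for the markers given as near or at 0 and for mt-Co2, mt-Co3, mt-Atp6 and mt-Atp8. The symbols Ca9 and 7SK of the lists had no match. A DESeq2 result of the cofactor list is not reported here.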

Additional observations from a re-analysis of the deposited data

How the results depend on the processing

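Without a filter on low counts, 1591 genes rose and 1330 fell, and 6 and 23 in the pathway lists. With the replicate number as a block, the counts were 1477 and 1231, and 4 and 27 in the lists. Of these list falls, 2, 2 and 3 were in the related complexes, cofactors and TCA cycle. Pdk1, Pdk4 and Pdp1 were the members past the threshold. Replicate 3 is in caMNK only, so with the block it adds nothing to the group difference. The labels do not say that a replicate number marks a shared batch. Deviations of same-numbered libraries from their group means had correlations of -0.208 and 0.003, so the numbers were not taken to pair the libraries. The edgeR adjusted p of Mknk1 was 2.86e-145 with the block and 5.54e-144 without the filter, against 4.82e-06 in the main fit. Calls of these fits are therefore not equally strict. With DESeq2, 18 list genes fell. Leaving out 1 library gave 11 to 2325 rises and 12 to 2617 falls, and 0 to 14 and 0 to 32 in the lists. The cause was not tested. No member past the threshold changed sign in the 11 alternatives. These reuse the libraries on which the set was chosen, so this is a description and no support. Without 1 pBABE library, the other stands for its group, and it is assumed to vary like the caMNK libraries. Depth limits Pdk2 and Pdk4 most, with 25 to 190 counts per library.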
